A study of Mus musculus with 43 samples.

Results

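The miR-200 family comprises 5 microRNA (miRNA) genes, and the series lists each of them as a row of counts named after its hairpin transcript: Mir200a-201, Mir200b-201 and Mir200c-201 and, with the same suffix, Mir429 and Mir141. These 5 rows were chosen by name, and all 5 were present and passed the low-count filter in each table. There were 312 miRNA rows among 4890 rows for tissue, 331 among 3178 for fluid and 394 among 4323 for sperm. The 43 libraries came from FVB mice aged 8 to 12 weeks that were either wild type (WT) or carried a CRISPR deletion of the locus of Rnase9, Rnase10, Rnase11 and Rnase12 (KO), a line whose males were sterile. Epididymis tissue gave 17 libraries, 3 per genotype from the caput (head), corpus (body) and cauda (tail) except 2 from KO corpus. Epididymal fluid gave 18 libraries, 3 per genotype and segment, each a pool of 3 mice, with sperm, vesicles and debris spun out. Cauda sperm gave 8 libraries, 4 per genotype, each a pool of 3 mice. None of the 4 deleted genes had a row in these small RNA tables, so the genotype labels could not be checked here. A section label of the caput fluid libraries and of WT caput tissue replicate 3 reads cauda against their titles, which set the groups here.

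Members of this family are made in epithelial cells, where they bind the mRNAs of the transcriptional repressors ZEB1 and ZEB2 and thereby help to keep E-cadherin expressed. The epididymis is a duct lined by epithelium and wrapped in smooth muscle and stroma, and its segments differ in gene expression and in what they secrete around the maturing sperm. A mature miRNA selects its targets mainly through its seed, bases 2 to 8 counted from its 5′ end, so members with the same seed share many targets even when they come from different chromosomes.

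The 3p mature sequences, from RefSeq on GRCm38.p6 and written 5′ to 3′ with the seed in capitals, are shown because they divide the family differently from its genomic clusters. All 5 rows matched an entry.
miR-200b-3p: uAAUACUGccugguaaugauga
miR-200c-3p: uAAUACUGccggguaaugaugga
miR-429-3p: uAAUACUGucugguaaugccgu
miR-200a-3p: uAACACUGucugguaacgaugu
miR-141-3p: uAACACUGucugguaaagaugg
Mir200b, Mir200c and Mir429 carried the seed AAUACUG, and Mir200a and Mir141 carried AACACUG. No other mature sequence among the 1738 in the mouse RefSeq table had either seed. The seeds differ by U4C from miR-200b-3p to miR-200a-3p, with positions counted from 1 at the 5′ end. Over the 22 positions compared, miR-141-3p differed from miR-200a-3p by C17A and U22G and miR-200c-3p differed from miR-200b-3p by U11G and A22G, and the other pairs differed at 4 or 5 positions.

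By position the family formed 2 clusters, both on the minus strand of GRCm38. Mir200b (chr4:156055681-156055750), Mir200a (chr4:156054896-156054985) and Mir429 (chr4:156053905-156053987) lay within 1846 bases. All 3 were intronic to Ttll10 and inside the noncoding gene Gm13648, where Mir429 overlapped an exon and the other two lay in introns. Mir200c (chr6:124718322-124718390) and Mir141 (chr6:124717914-124717985) lay within 477 bases in an intron of the noncoding gene Gm15884, and Mir141 also overlapped an exon of the gene model Gm29008. The hairpins of the chromosome 6 pair are shown with both mature arms in capitals, because a read on either arm was added to the same row.
Mir200c hairpin: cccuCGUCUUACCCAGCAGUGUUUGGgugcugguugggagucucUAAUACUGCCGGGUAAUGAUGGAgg
Mir141 hairpin: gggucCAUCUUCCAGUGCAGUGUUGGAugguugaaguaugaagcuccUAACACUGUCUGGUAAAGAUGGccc
The arms of each hairpin therefore could not be told apart in the counts.

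Depth limited the precision unevenly. Tissue libraries totalled 30142156 to 249732714 counts, of which miRNA rows held 0.0219 to 0.0618% and the family 128 to 7029 counts. Fluid libraries totalled 1948718 to 12320922, with a miRNA share of 0.130 to 0.812% and 221 to 2986 family counts. Sperm libraries totalled 1134840 to 62128314, with a miRNA share of 0.0386 to 0.168% and 16 to 1254 family counts. The shallow sperm libraries were WT replicates 2, 3 and 4 and KO replicate 4, with 1134840 to 3618739 counts in all. Levels below are in CPM, the usual per-million scale of counts relative to the library total, after scaling by trimmed mean of M values (TMM). Tissue was sequenced with another library method (ARM-seq) than fluid and sperm (OTTR-seq), so levels were compared between materials only as composition within a library, and no test was run between materials. Where tissue is set against fluid or sperm, material and library method cannot be told apart, in composition either. In whole tissue, fewer epithelial cells and less miRNA per cell cannot be told apart.

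Mir200a was the leading member in most libraries of tissue and fluid. Per mature base, which corrects for the 43 to 45 bases of both arms, the order of the members was the order by CPM in all 17 tissue and all 18 fluid libraries and in 7 of 8 sperm libraries. Mir200a stood first in 12 of 17 tissue libraries and Mir200c in the other 5, while Mir141 stood last in all 17. In fluid Mir200a stood first in 17 of 18 libraries, and Mir141 and Mir429 were each last in 9. By mean CPM over all libraries of a table, which pools segments and genotypes that differ in level, Mir200a ranked 15 of the 312 miRNA rows in tissue and 19 of the 331 in fluid, and Mir141 ranked 79 and 66. In sperm the ranks ran from 46 of 394 for Mir200a to 159 for Mir429.

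**Figure D1:**
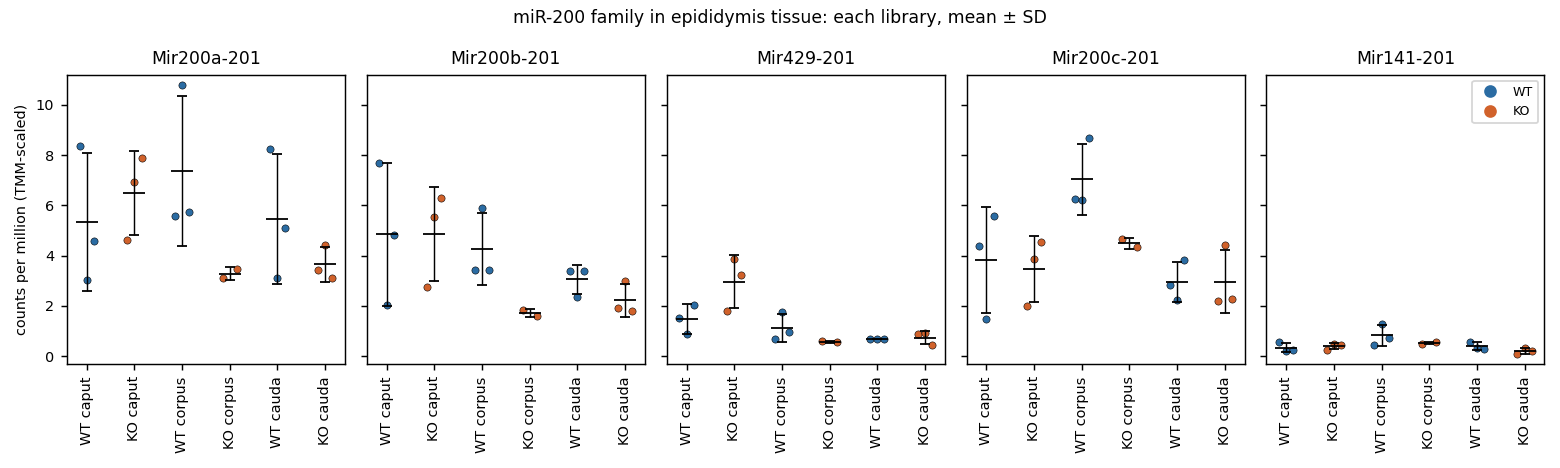
Level of each member (CPM, TMM-scaled, linear axis) in every epididymis tissue library by segment and genotype; points are libraries, bars are the mean ± SD of 3 libraries (2 for KO corpus). The highest mean was in KO caput for Mir429 (1.79 to 3.86 CPM) and in WT corpus for Mir200c (6.22 to 8.67 CPM), and Mir141 stayed at or below 1.28 CPM.

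Mir429, the member at the 3′ end of the chromosome 4 cluster, was the only member that edgeR called between tissue segments in the fit of all libraries without a replicate block, falling from the caput to the corpus and cauda of KO mice. DESeq2 called it in the same comparisons and also called Mir200b from caput to cauda in KO (-1.22 ± 0.45, adjusted p = 0.0315) and Mir429 from caput to cauda in WT (-1.17 ± 0.45, adjusted p = 0.0401). Its CPM was 1.503, 0.866 and 2.04 in the 3 WT caput libraries, 0.663, 1.74 and 0.939 in WT corpus and 0.664, 0.687 and 0.686 in WT cauda. In KO tissue it was 1.79, 3.86 and 3.23 in caput, 0.603 and 0.542 in corpus and 0.857, 0.917 and 0.424 in cauda. Every KO library outside the caput thus lay below every KO caput library. In WT the cauda libraries lay below the caput libraries but the corpus libraries overlapped them. Of all RNAs, 43.8% had groups that did not overlap between KO caput and corpus. This share was 38.8% between KO caput and cauda and 37.9% between WT caput and cauda. The log2 fold change of Mir429 was -2.06 ± 0.45 (SE) from caput to cauda in KO (edgeR quasi-likelihood test, Benjamini-Hochberg adjusted p = 0.00255) and -2.37 ± 0.51 from caput to corpus in KO (adjusted p = 0.0462). Of all RNAs tested 27.2% were called in the first of these comparisons and 0.631% in the second. In WT the caput to cauda change was -1.12 ± 0.43 (adjusted p = 0.0720, 24.7% of RNAs called), and it was -1.14 ± 0.41 (adjusted p = 0.0360) in a fit that blocked on the replicate number, which paired the WT tissue libraries and called 34.1% of RNAs there. Without WT caput replicate 3, whose section label reads cauda, it was -0.75 ± 0.45 (adjusted p = 0.271).

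With the block, Mir200b also fell from caput to cauda in KO tissue, by 1.11 ± 0.42 on the log2 scale (adjusted p = 0.0360, against 0.0732 without it), where 41.4% of all RNAs were called with the block. The replicate number clearly paired only the libraries numbered 3 in that comparison. In WT tissue without the block edgeR called 0 of 15 member comparisons, with 4 at an unadjusted p below 0.05 and 1 called by DESeq2. The chromosome 6 pair had higher mean levels in WT corpus than in WT caput. Over all 172 miRNAs tested the median log2 fold change there was 0.87, and it was -0.20 from corpus to cauda. Mir200c was at 4.40, 1.48 and 5.58 CPM in WT caput, 6.24, 6.22 and 8.67 in corpus and 2.82, 2.21 and 3.81 in cauda, so every corpus library lay above every library of the caput and cauda, as 23.2% of all RNAs had groups that did not overlap between corpus and caput and 18.5% between corpus and cauda. With the replicate block it was higher in corpus than in caput by 1.02 ± 0.35 on the log2 scale (adjusted p = 0.0415) and lower in cauda than in corpus, at -1.30 ± 0.36 (adjusted p = 0.0246); without the block these were 0.88 ± 0.45 (adjusted p = 0.262) and -1.25 ± 0.46 (adjusted p = 0.190). Mir141 rose from caput to corpus by 1.34 ± 0.42 with the block (adjusted p = 0.0245) and had a change of 1.27 ± 0.48 without it (adjusted p = 0.102). With the block 21.9% of all RNAs were called from caput to corpus and 9.20% from corpus to cauda in WT. The share called without the block was 12% from caput to corpus and 3.41% from corpus to cauda in WT, and 12.4% from corpus to cauda in KO.

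The balance of the clusters differed between libraries, with ranges that overlapped between segments. The chromosome 4 members made up 66.3 to 80.3% of the family's counts in the 6 caput tissue libraries, 51.8 to 71.1% in the 5 corpus libraries and 63.8 to 78.4% in the 6 cauda libraries. These are shares of counts within a library and do not depend on how libraries were scaled. The ratio of Mir429 to its cluster neighbour Mir200b, per mature base, was 0.200 to 0.440 in WT caput and 0.526 to 0.713 in KO caput, which did not overlap, and 0.198 to 0.459 in all corpus and cauda tissue libraries. In CPM the WT and KO caput groups overlapped for every member, and they did not overlap for 7.14% of all RNAs. In caput fluid the ratio of Mir429 to Mir200b overlapped between genotypes, at 0.314 to 0.478 in WT and 0.447 to 0.478 in KO. Among the WT caput tissue values, 0.431 was of replicate 3, whose section label reads cauda. No test was run on these shares and ratios.

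As a share of all miRNA counts the whole family was at its lowest level in the cauda libraries, while in CPM its caput and cauda libraries overlapped. In WT the family was at 7.57 to 22.5 CPM in caput and 8.67 to 15.7 in cauda. In KO it was at 11.4 to 22.4 CPM in caput and 7.79 to 13.1 in cauda. It took 3.79 to 5.98% of miRNA counts in caput tissue, 2.97 to 5.63% in corpus and 1.64 to 3.11% in cauda, so that every cauda library lay below every caput library. Over the 17 tissue libraries this share had a Pearson's r of 0.67 with the log10 of the total count, and the cauda libraries totalled 30142156 to 158606180 counts against 56232715 to 249732714 in the caput; the part of depth in the family's share was not tested. Beside this, some miRNAs of smooth muscle and stroma changed in the other direction. Of the 10 listed and tested, 4 rose from caput to cauda in WT and 4 in KO, and none was called lower. Of all RNAs 24.7% were called in this comparison in WT and 27.2% in KO. In both genotypes the 4 were Mir143, Mir145a, Mir1a-1 and Mir1a-2, of which the Mir1a rows can share reads. Mir143, a miRNA of smooth muscle and the most abundant of that list, rose by 2.53 ± 0.36 on the log2 scale in WT (adjusted p = 7.14e-05) and 1.99 ± 0.36 in KO (adjusted p = 0.000496). The summed level of the list was 25.2 to 49.5 CPM in WT caput and 117 to 233 CPM in WT cauda, 27.4 to 46.9 in KO caput and 117 to 150 in KO cauda. Most of this sum was Mir143, alone at 102 to 206 CPM in WT cauda and 100 to 128 in KO cauda. Mir143 is itself among the miRNA counts of which the family's share was taken. Its part in the lower share in the cauda was not tested. Of the 3 tested blood, immune and endothelial miRNAs, only Mir486, a miRNA of red blood cells, was called in these comparisons. It rose in both genotypes from a very low level, 0.012 to 0.019 CPM in WT caput and 0 to 0.0096 in KO caput. In the cauda it was at 0.166 to 0.191 CPM in WT and 0.066 to 0.212 in KO. Mir126a, the most abundant of them, went from a mean of 1.12 CPM in caput to 0.952 in cauda in WT and from 1.15 to 0.592 in KO. The part of a changed cell makeup in the family's values was not tested.

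Other epithelial or secretory miRNAs gave a reference for the family. In tissue 6 of the 10 listed were tested. Mir375 fell in WT in all 3 segment comparisons, and it fell from caput to cauda in KO together with Mir183 and from corpus to cauda alone. The most abundant of them, Mir205, an epithelial miRNA that also acts on ZEB mRNAs, and Mir182 were not called in any comparison of tissue segments. From caput to cauda the median log2 fold change over the list was -0.65 in WT and -1.35 in KO, against -0.37 and -0.90 over the family and 0.32 and 0.12 over all 172 miRNAs tested.

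**Figure D2:**
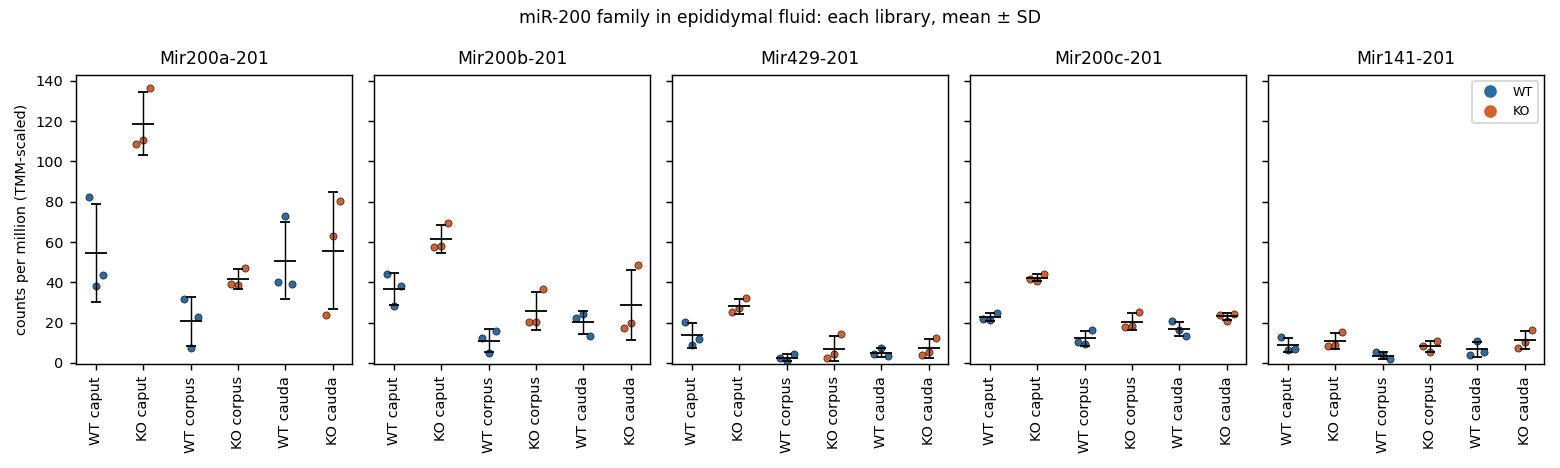
Level of each member (CPM, TMM-scaled, linear axis) in every epididymal fluid library by segment and genotype; points are libraries, bars are the mean ± SD of 3 libraries. In both genotypes the caput libraries were the highest for Mir429, at 8.75 to 32.1 CPM, and the KO caput libraries (108 to 137 CPM) lay above all others for Mir200a.

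Fluid, from which sperm and vesicles had been removed, had 2 member calls in WT and 4 in KO between segments by edgeR without a replicate block, each a fall from the caput. From caput to corpus fluid of WT mice, all 5 members had every corpus library below every caput library, in a comparison where 38.3% of all RNAs had groups that did not overlap and 17.8% were called. Mir429 was at 20.5, 8.75 and 11.7 CPM in WT caput and 2.69, 1.13 and 4.23 CPM in WT corpus, a log2 fold change of -2.39 ± 0.61 (adjusted p = 0.00996). Mir200b was at 43.9, 28.2 and 38.0 CPM in caput and 12.54, 4.80 and 15.9 in corpus, a change of -1.74 ± 0.48 (adjusted p = 0.0154). The other 3 had changes between -1.40 and -0.91 and adjusted p values from 0.0545 to 0.0835, beside a median of -0.15 over the 232 miRNAs tested.

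The same comparison in KO fluid called Mir429, Mir200a and Mir200c, with 19.6% of all RNAs called. Mir429 fell by 1.98 ± 0.60 on the log2 scale (adjusted p = 0.0250), from 25.05, 27.1 and 32.1 CPM in caput to 2.41, 4.59 and 14.5 in corpus. Mir200a fell by 1.51 ± 0.50 (adjusted p = 0.0375), from 108, 111 and 137 CPM to 39.3, 38.6 and 47.2. Mir200c fell by 1.04 ± 0.36 (adjusted p = 0.0419), from 41.8, 40.8 and 44.4 CPM to 18.05, 18.4 and 25.3. For each of these, as for Mir200b, the caput and corpus groups did not overlap, which was so for 39.5% of all RNAs, and Mir200b, at -1.26 ± 0.47, had an adjusted p of 0.0682. DESeq2 called Mir200b in this comparison (-1.27 ± 0.47, adjusted p = 0.0389).

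From caput to cauda Mir429 was the only member that edgeR called without a replicate block. In KO fluid DESeq2 also called Mir200c (-0.83 ± 0.30, adjusted p = 0.0302). With the block edgeR also called Mir200b there (-1.26 ± 0.43, adjusted p = 0.0383), although the numbers did not pair these libraries. In KO fluid Mir429 was at 3.72, 5.55 and 12.48 CPM in cauda, below every caput library, with a change from caput of -1.97 ± 0.58 (adjusted p = 0.0180, 26.6% of RNAs called). In WT fluid its change from caput to cauda was -1.41 ± 0.58 (adjusted p = 0.0756, 25.5% called), with 4.51, 7.57 and 3.23 CPM in the cauda and again no overlap with the caput. Caput and cauda groups did not overlap for 43.4% of all RNAs in KO and 43.1% in WT. No member was called between corpus and cauda in fluid, where 2.17% of RNAs were called in WT and 2.97% in KO. The WT medians of the members from caput to corpus and from caput to cauda were -1.40 and -0.43.

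**Figure D3:**
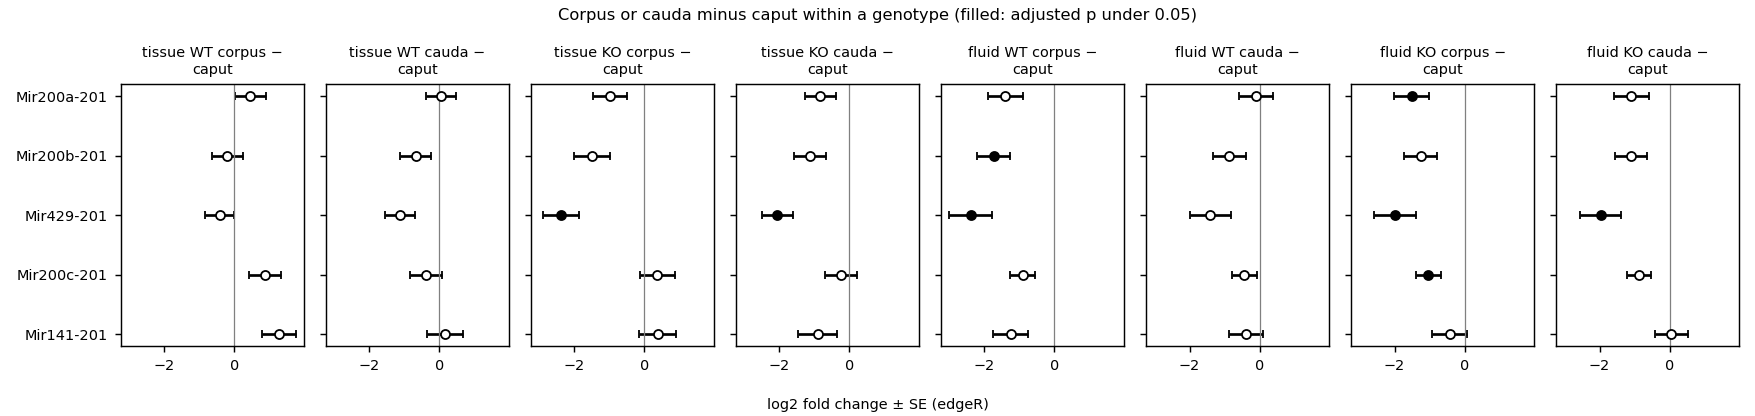
Log2 fold change ± SE (horizontal axis, edgeR) of each member from caput to corpus or cauda, within each genotype, in tissue (left 4 panels) and fluid (right 4 panels); filled points had an adjusted p under 0.05. Mir429 lay left of zero in all 8 panels and was called in 5, while Mir141 was called in none.

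As a share of fluid miRNA counts the family took 4.28 to 7.50% in the 6 caput libraries, 1.17 to 3.02% in corpus and 2.11 to 3.86% in cauda, with no overlap between the caput and the rest. Among the other lists, the germ line and ciliated cell miRNAs rose toward the cauda in fluid, where Mir34b and Mir34c, abundant in the germ line and in ciliated cells, were both called from caput to cauda in WT and KO, by 3.998 ± 0.49 and 2.51 ± 0.59 in WT and 2.86 ± 0.45 and 1.72 ± 0.55 in KO. Of the 8 other epithelial miRNAs tested in fluid, Mir375 fell from caput to corpus and to cauda in both genotypes and Mir182 did so in WT, while Mir31 rose from caput to cauda in WT. None of the 10 smooth muscle and stroma miRNAs was called from caput to corpus in WT fluid and 5 rose in KO: Mir1a-1, Mir1a-2, Mir199a-1, Mir199a-2 and Mir199b, of which the Mir1a and the Mir199 rows hold nearly identical mature sequences and can share reads. Their part in the family's values was not tested.

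The comparison of KO with WT asks whether loss of the RNase genes came with other levels of these epithelial miRNAs. edgeR and DESeq2 each called 0 of the 15 tissue, 15 fluid and 5 sperm member comparisons. At an unadjusted p below 0.05 there were 3 for tissue, 6 for fluid and 0 for sperm by either tool. Across all RNAs the share called was 0% in caput tissue, 0% in corpus tissue, 0.86% in cauda tissue, 0% in caput fluid, 19.7% in corpus fluid, 0% in cauda fluid and 0% in sperm, while DESeq2 called 0, 24, 222, 9, 476, 42 and 140 RNAs and edgeR had 34, 279, 527, 214, 684, 188 and 434 RNAs at an unadjusted p below 0.05. In cauda tissue, where the replicate number paired WT and KO libraries, edgeR with the replicate block called 10.8% of RNAs and still no member.

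**Figure D4:**
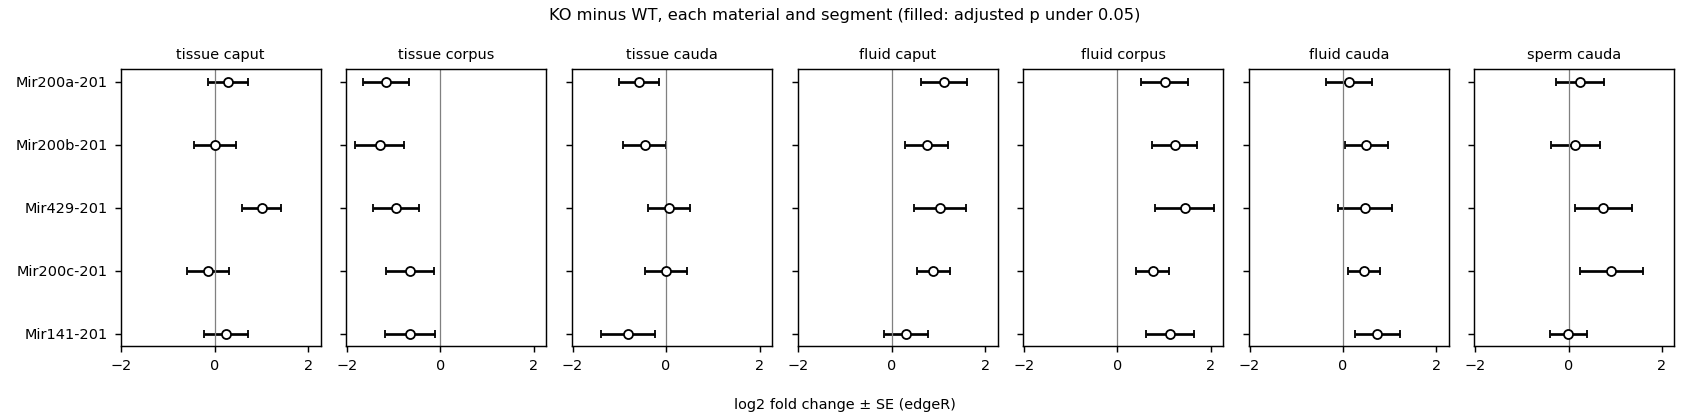
Log2 fold change ± SE (horizontal axis, edgeR) of each member between KO and WT in each segment of tissue and fluid and in sperm; open points had an adjusted p of 0.05 or more. All 35 points are open; the 5 members lie left of zero in corpus tissue and right of zero in caput, corpus and cauda fluid, which with scaling from miRNA rows no longer held for Mir200c and Mir141 in corpus tissue or for Mir141 in caput, Mir200a and Mir200c in corpus and Mir200a in cauda fluid.

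In tissue the KO values differed in sign between segments. Mir429 in the caput had 1.003 ± 0.42 (adjusted p = 0.9996; 1.23 ± 0.45 without WT caput replicate 3), and the other members there lay between -0.14 and 0.28. In the corpus all 5 members were lower in KO, from -1.30 ± 0.52 for Mir200b (adjusted p = 0.559) to -0.65 ± 0.54 for Mir141. The corpus libraries of KO lay below all of WT for 4 members, for example Mir200b with 1.84 and 1.60 CPM against 3.42, 5.90 and 3.42, where 27.04% of all RNAs and 51.2% of miRNAs also had groups that did not overlap. The median over all miRNAs in that comparison was -1.02 and the family's was -0.95. Beside this the miRNA share of all counts was 0.0235 to 0.0274% in the 2 KO corpus libraries and 0.0340 to 0.0515% in the 3 WT ones. When the scaling factors were computed from miRNA rows alone, the median of all RNAs moved from -0.04 to 0.77 and the 5 members lay between -0.41 and 0.28, with Mir200c and Mir141 above zero. In the cauda the members lay between -0.82 and 0.06.

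The difference in KO effect between corpus and caput tissue had its largest value among the members for Mir429, at -1.95 ± 0.64, and was not called (adjusted p = 0.9995, 0% of RNAs called). The median of this difference was -1.30 over the family and -1.16 over all miRNAs tested. The difference in KO effect between cauda and caput was not called for any member either (0% of RNAs called). Neither edgeR nor DESeq2 called any of the 10 tissue or 10 fluid member comparisons of this kind, with 2 and 0 at an unadjusted p below 0.05 in each tool, and in fluid the share of RNAs called was 1.83% for corpus against caput and 0% for cauda against caput.

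In fluid the log2 fold changes of all 5 members between KO and WT were above zero in each segment and none passed the test. With scaling factors from miRNA rows this no longer held for Mir141 in caput (-0.22), Mir200a (-0.02) and Mir200c (-0.28) in corpus and Mir200a in cauda (-0.16). In caput fluid Mir200a was at 82.4, 38.0 and 43.4 CPM in WT and 108, 111 and 137 in KO, a log2 fold change of 1.12 ± 0.49 (adjusted p = 0.399). Mir200c was at 21.95, 21.5 and 24.9 CPM in WT and 41.8, 40.8 and 44.4 in KO, a change of 0.89 ± 0.35 (adjusted p = 0.302). The KO libraries lay above all WT libraries for these 2 and for Mir200b and Mir429, in a comparison where 26.001% of all RNAs and 30.2% of miRNAs had groups that did not overlap, and the miRNA median was 0.48. With scaling factors from miRNA rows the median of all RNAs there moved from 0.01 to -0.54, and the values became 0.62 for Mir200a, 0.22 for Mir200b, 0.54 for Mir429 and 0.34 for Mir200c. The family held 4.28 to 5.31% of miRNA counts in WT caput fluid and 5.68 to 7.50% in KO, and the miRNA share of all counts was 0.220 to 0.317% in WT and 0.385 to 0.480% in KO. For Mir141 the groups overlapped, at 12.9, 6.65 and 6.89 CPM in WT and 8.19, 9.14 and 15.6 in KO.

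Corpus fluid was the KO comparison in which miRNAs were called, although no member was. There the 5 members had changes from 0.76 ± 0.36 for Mir200c (adjusted p = 0.140) to 1.44 ± 0.63 for Mir429 (adjusted p = 0.111), and Mir200b, at 12.54, 4.80 and 15.9 CPM in WT and 20.5, 20.5 and 36.5 in KO, had the lowest adjusted p (1.23 ± 0.48, adjusted p = 0.0762). The KO libraries lay above all WT libraries for 4 members, all but Mir429, where 36.1% of all RNAs and 37.9% of miRNAs had groups that did not overlap. The family's median of 1.13 stood beside a median of 1.07 over all miRNAs, of which 55 of 232 were called higher in KO and 0 lower. None of the 8 other epithelial miRNAs was called there, and their median was 1.10. From the other lists Mir142 and Mir150, miRNAs of blood cells, Mir126a, a miRNA of endothelium, and the muscle miRNA rows Mir1a-1 and Mir1a-2 were called higher in KO, Mir126a by 1.70 ± 0.49 on the log2 scale (adjusted p = 0.0199). The KO corpus fluid libraries were the shallowest of the fluid libraries, with 1948718 to 3373869 counts against 3989262 to 10172577 in WT, and miRNA rows took 0.374 to 0.812% of counts against 0.205 to 0.353%. With scaling factors from miRNA rows the median of all RNAs moved from 0.10 to -0.94 and the members lay between -0.28 (Mir200c, now lower in KO) and 0.30, none called. As a share of miRNA counts the family was at 1.17 to 3.02% in WT and 1.83 to 2.39% in KO, which overlapped.

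Sperm carried the family at low counts and with another composition. The 4 WT libraries held 418, 3, 6 and 25 counts of Mir200a, 218, 1, 5 and 15 of Mir200b, 62, 1, 0 and 3 of Mir429, 84, 0, 1 and 11 of Mir200c and 442, 11, 8 and 12 of Mir141. The 4 KO libraries held 152, 299, 451 and 17 counts of Mir200a, 96, 144, 239 and 10 of Mir200b, 24, 56, 69 and 9 of Mir429, 83, 104, 128 and 14 of Mir200c and 106, 237, 367 and 18 of Mir141. A count of 0 allows a level of up to 1.17 CPM for Mir200c in WT replicate 2 and 1.58 CPM for Mir429 in WT replicate 3, counting 3 counts as the limit and covering counting error only. Between KO and WT sperm the log2 fold changes ran from -0.01 ± 0.39 for Mir141 to 0.91 ± 0.67 for Mir200c (adjusted p from 0.545 to 0.995), and the groups overlapped for every member. With 3 of the 4 WT libraries at 16 to 66 family counts, differences of this size could not be resolved at this depth.

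**Figure D5:**
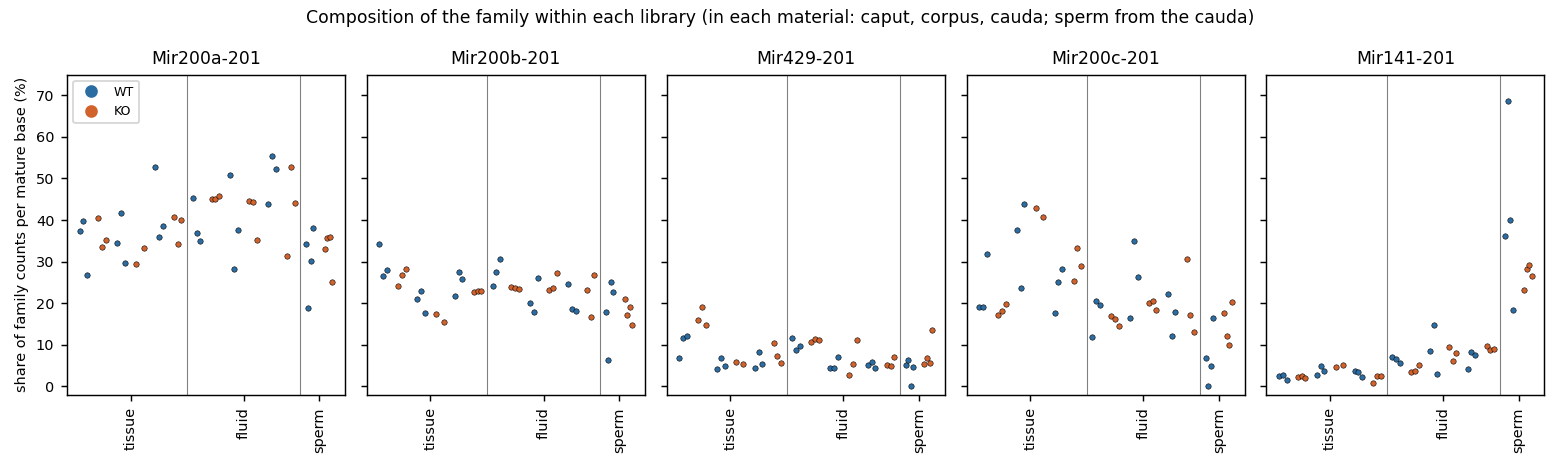
Share of each member in the family's counts per mature base (vertical axis, percent) within each of the 43 libraries, ordered by material and within tissue and fluid by segment (caput, corpus, cauda), WT in blue and KO in orange. Mir141 holds 18.2 to 68.7% in sperm, with both ends from shallow WT libraries, and at most 14.7% in fluid and 5.22% in tissue. Mir200c is lower in sperm than in most tissue libraries. Tissue had another library method than fluid and sperm.

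Mir141 and Mir200c, neighbours on chromosome 6, were far apart in abundance in tissue and reversed in sperm. Mir141 held 0.784 to 5.22% of the family's counts per mature base in the 17 tissue libraries, 2.96 to 14.7% in the 18 fluid libraries and 18.2 to 68.7% in the 8 sperm libraries, so the sperm libraries lay above all others. The ratio of Mir141 to Mir200c was 0.0310 to 0.210 (tissue) and 0.112 to 0.686 (fluid), and in the 7 sperm libraries with a Mir200c count it was 1.12 to 8.18. In the 4 deep sperm libraries, WT replicate 1 and KO replicates 1 to 3, that ratio was 5.38, 1.31, 2.33 and 2.93. Mir141 held 36.1, 23.1, 28.2 and 29.3% of the family's counts per mature base in them. Both ends of its range over all 8 sperm libraries came from shallow WT libraries. Mir141 exceeded Mir200c in both genotypes and in shallow and deep sperm libraries alike, and Mir141 or Mir200a led the family in 4 sperm libraries each. No test was run, because the materials were prepared and tabulated separately. Between tissue and sperm, the difference in this ratio and share cannot be told apart from the difference in library method.

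Set against cauda fluid, which was prepared with the same library method, Mir200a, Mir200b and Mir200c took a smaller share of miRNA counts in sperm. Scaled to CPM of the miRNA counts alone, Mir200a was at 2681 to 5863 in sperm and 7768 to 21284 in cauda fluid, and Mir200c at 0 to 3461 against 4760 to 7768, neither overlapping, as was also so for Mir200b and for 35.0% of the 183 miRNAs tested in both tables. Mir429 overlapped, at 0 to 2225 in sperm and 1037 to 2634 in cauda fluid. Mir141 was at 2364 to 9830 in sperm and 889 to 3442 in cauda fluid, with a log2 ratio of medians of 0.79 beside 0.85 over the 183 miRNAs, while Mir200a, Mir200b, Mir429 and Mir200c had ratios from -1.64 to -0.72. Ordered from the highest ratio, Mir141 ranked 97 of 183 and the other members ranked 135 to 170. The family took 1.30 to 1.72% of miRNA counts in sperm. The germ line list, whose Mir34b and Mir34c are abundant in sperm cells, summed to 17.9 to 47.2 CPM in WT sperm and 30.5 to 43.2 in KO sperm, and Mir205, the most abundant of the other epithelial miRNAs by mean level, was also read there. Epithelial RNA taken along with the sperm was not tested.

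The members did not vary as 1 unit across libraries. Over the 17 tissue libraries, Pearson's r of log2 CPM was 0.88 between Mir200a and Mir200b 0.58 between Mir200a and Mir429, 0.77 between Mir200b and Mir429 and 0.67 between Mir200c and Mir141, and it was 0.20 to 0.66 between members of different clusters. Over the 18 fluid libraries r was 0.87 to 0.95 within the chromosome 4 cluster 0.54 between Mir200c and Mir141 and 0.63 to 0.90 between members of different clusters, and over the 8 sperm libraries it was 0.26 for that pair. These values share segment, genotype and depth and are given as a description. The miRNAs outside the family whose log2 CPM followed the family's mean most closely were Mir126a (r = 0.94), Mir103-2 (0.94), Mir103-1 (0.94), Mir21a (0.84) and Mir183 (0.84) in tissue, Mir20a (0.91), Mir29c (0.86), Mir148a (0.84), Mir29b-1 (0.84) and Mir29b-2 (0.83) in fluid, and Mir25, Mir27b, Mir191, Mir21a and Mir10a (0.98 each) in sperm. The paired Mir103 and Mir29b rows have the same mature 3p sequence and can hold the same reads. The median r over the miRNAs compared equalled 0.36 (tissue), 0.32 (fluid) and 0.74 (sperm).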

How the data were processed

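Small RNA was sequenced from 17 epididymis, 18 fluid and 8 sperm libraries after PNK treatment. The authors trimmed adapters with cutadapt, mapped reads to mm10, tRNA and rRNA sequences with a modified tRAX pipeline and deposited whole-number read counts per Ensembl transcript, 1 table per material. Such a row takes reads of both hairpin arms, and a read that matches equally well can count on several rows. Per the labels, UMI-tools is also named; how it entered these counts is not given in the sources used here. Samples were grouped by title, although a section label of the caput fluid libraries and of WT caput tissue replicate 3 reads cauda.

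Each table was fitted whole with edgeR 4.0.16: filterByExpr (minimum count 10, minimum total 15) left 3488, 2023 and 2480 RNAs, followed by TMM scaling, a quasi-likelihood test on all groups of the table and Benjamini-Hochberg adjustment over all RNAs tested, with an adjusted p under 0.05 called. SE is the log2 fold change divided by the root of its F statistic. Levels of log2 CPM used a prior count of 2. Where the labels do not say that replicates came from separate animals, p values measure the spread between libraries only. The fit was tested on simulated data.

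Replicate numbers come from the titles. Same-numbered libraries deviated together (r over 0.1 in each of 3 pairs) between the WT tissue segments (0.289 to 0.670), between KO caput and cauda tissue (0.175 to 0.602), between WT and KO cauda tissue (0.272 to 0.596) and between KO corpus and cauda fluid (0.131 to 0.271), and there the number was taken to pair them. In KO tissue, however, caput 1 with cauda 2 had an r of 0.208 against 0.175 for 1 with 1. Caput 2 with cauda 1 had 0.353 against 0.228 for 2 with 2. Between KO caput and cauda tissue the number thus clearly paired only the libraries numbered 3.

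The family, the 4 lists of other miRNAs and the tests were chosen with earlier results of these data known. Named miRNAs are the 5 members, per table the 5 other tested miRNAs with the highest r to the mean log2 CPM of the members, and list rows that were called or were among the 2 highest by mean CPM. Alternatives were scaling by library size only, TMM factors from miRNA rows, DESeq2 1.42.0, edgeR with the DESeq2 size factors, no filter, the groups of a contrast alone, the replicate block and leaving out each library.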

Additional observations from a re-analysis of the deposited data

Results flagged for a closer look

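Sperm, with 4 libraries per group, was the only material in which single libraries were tested against the rest of their group (Dixon's test). In it 10 combinations of member and group were examined, of which chance would flag about 1 in 20. Mir141 in WT sperm stood out in replicate 1, the deep library, at 6.92 CPM against 4.23 to 4.34 CPM in the 3 shallow ones. The shallow values rest on 11, 8 and 12 counts and the deep one on 442. Mir429 in KO sperm stood out in replicate 4, the shallow library, at 3.09 CPM, a value that rests on 9 counts, against 0.851 to 1.18 CPM in the others.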

How the results depend on the processing

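Counts of members called moved with the processing for segments and not for genotype. KO against WT and the differences of KO effect between segments stayed at 0 under each alternative run in tissue, fluid and sperm, with lowest adjusted p values of 0.281, 0.0574 and 0.0845 for KO against WT. For segments in WT tissue the count of 0 became 1 with library size only, with TMM factors from miRNA rows and with DESeq2, 4 with the replicate block, and 0 to 1 on leaving out 1 library. In KO tissue the 2 calls became 4 with library size only, 3 with DESeq2 and with the replicate block, and 1 to 3 on leaving out 1 library. In WT fluid the 2 calls became 1 with library size only, 4 with TMM factors from miRNA rows, with the groups of the contrast alone and with the replicate block, and 0 to 3 on leaving out 1 library. In KO fluid the 4 calls became 1 with library size only and 0 to 6 on leaving out 1 library; DESeq2 gave 6 and the replicate block 5. The numbers did not pair the caput and corpus fluid libraries and did not clearly pair KO caput with KO cauda tissue, so the block values there rest largely on a shared number only.

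Mir429 from caput to cauda in KO tissue was called in 17 of 17 fits without 1 library (adjusted p up to 0.0135). The other 7 calls were each lost in some. In KO tissue, Mir429 from caput to corpus was lost without any KO caput or KO corpus library, WT caput 1, WT cauda 1, KO cauda 1 or KO cauda 2 (adjusted p up to 0.379). In WT fluid from caput to corpus, Mir429 was lost without WT caput 1 or 3 or WT corpus 2 (up to 0.137), and Mir200b without any WT caput library, WT corpus 2 or 3, KO caput 1 or 2, KO corpus 1 or 2 or WT cauda 3 (up to 0.193). In KO fluid from caput to corpus, Mir200a (up to 0.144), Mir429 (up to 0.176) and Mir200c (up to 0.163) were lost without WT caput 3, any KO caput library or KO corpus 1 or 2, Mir200a and Mir200c also without KO corpus 3 and Mir200a without WT cauda 3. Mir429 from caput to cauda in KO fluid was lost without WT caput 3, any KO caput library or KO cauda 1 or 2 (up to 0.138). Over these fits 10 calls were gained, 5 of them in tissue, among them Mir429 from caput to cauda in WT tissue without WT caput 2 (adjusted p = 0.0394) or KO cauda 3 (0.0361) and Mir141 from caput to corpus in WT tissue without WT caput 1 (0.0444); the others, Mir200a, Mir200b and Mir429 in other comparisons, had adjusted p from 0.0214 to 0.04999. The cause was not tested beyond the smaller number of libraries.

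Of 115 member comparisons, 31 changed sign under at least 1 setting other than leaving out a library, 21 of them with TMM factors from miRNA rows, and none was called either way (lowest adjusted p 0.140 as reported and 0.381 in the alternative). Among the 35 with an unadjusted p below 0.05, Mir200c in KO against WT corpus fluid was the only one, at -0.28 with TMM factors from miRNA rows. Depth limits sperm most, where 3 WT libraries held 16, 20 and 66 family counts.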
